A study of Mus musculus with 2 samples.

Results

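Atp1b1, Atp1b2, Fxyd1 and Fxyd6, which encode 2 beta subunits of the sodium pump and 2 of its FXYD regulators, were followed across single myofibers of the mouse flexor digitorum brevis (FDB), a short muscle in the sole of the foot. They are 4 of the 35163 genes in the count table, and they were picked because earlier work on this table had shown their levels in fast 2A and fast 2X fibres, so the contrast between these 2 classes is given as a description with no test. The fibres came from 1 untreated C57BL/6J mouse more than 3 months of age, were freed with collagenase, sorted singly into wells by a large particle sorter and profiled by mcSCRB-seq. This method puts a random tag, the unique molecular identifier (UMI), on each RNA molecule before amplification, so that copies of a molecule count once. All cells therefore belong to 1 biological sample. Cells with more than 5000 genes detected and less than 20% of counts from the 27 mitochondrial genes were kept, which left 171 of 763 cells, 168 of them whole myofibers and 3 of them fragments from cut muscle. Each cell was classed by the largest count among Myh1, Myh2, Myh4, Myh7 and Myh8, the myosin heavy chain genes that define fibre types. This gave 117 fast 2X cells (Myh1), 51 fast 2A cells (Myh2), 2 slow cells (Myh7) and 1 fast 2B cell (Myh4).

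The sodium pump, or Na,K-ATPase, moves sodium out of the cell and potassium back in against their gradients, and in muscle it restores both gradients after each action potential. A catalytic alpha subunit carries the ions and binds ATP, while a glycosylated beta subunit brings alpha to the plasma membrane and tunes its affinity for potassium. Small single-span FXYD proteins bind the complex and adjust its turnover and its affinity for sodium. Atp1b1 encodes beta 1 and Atp1b2 encodes beta 2, which was also described as an adhesion molecule on glia. Fxyd1 encodes phospholemman, a target of protein kinases A and C at the muscle membrane, and Fxyd6 encodes phosphohippolin, named for its abundance in the hippocampus.

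The labels of the fibre classes were checked against genes that the class rule did not read. Pvalb, a calcium buffer of fast fibres, stood at 6360 counts per 1000000 summed UMI counts (CPM) in fast 2X cells. In fast 2A cells it stood at 2091 CPM. Tnnt1, the slow troponin T, was at 254 CPM in fast 2X and 2908 CPM in fast 2A cells. As a slow-fibre gene, Tnnt1 cannot tell fast 2A fibres from mixed slow and fast 2A fibres. Of other slow and fast 2A markers, Myl2 was at 109 and 971 CPM and Tnnc1 at 399 and 2218 CPM. Myh7, which the rule read, had a log2 ratio of fast 2A to fast 2X of 3.107. The paper reads its own Myh2 cluster as slow and fast 2A fibres together. The part of slow-fibre RNA in the fast 2A levels was not tested. The kept cells held between 28827 and 1542996 UMI counts, with a median of 255726 in fast 2X and 206510 in fast 2A cells. No cell barcode occurred on both sequencing lanes. Of 35 markers of 7 other cell types (endothelium, smooth muscle and pericytes, Schwann cells and axons, fibroblasts, satellite cells, macrophages and red blood cells), 33 were in the table. Their summed level ranged from 71.3 to 15434 CPM with a median of 263 in fast 2X cells. In fast 2A cells it ranged from 109 to 3397 CPM with a median of 264. Of all kept cells, 9 exceeded 1000 CPM, namely 7 fast 2X cells, 1 fast 2A cell and the fast 2B cell. Of the markers in the table, Hba-a2 was at 0 in fast 2X cells and no marker was at 0 in fast 2A cells.

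Of the 4 members, 3 matched the RefSeq promoter table for GRCm38.p6, which holds the 250 bases before and the 50 bases after each gene's start. They are shown because Atp1b1 and Fxyd6 had higher levels in fast 2A than in fast 2X cells while Fxyd1 lay close to even. The window of Atp1b1 is chr1:164458306-164458605 on the minus strand, that of Fxyd1 is chr7:31054804-31055103 on the minus strand and that of Fxyd6 is chr9:45369935-45370234 on the plus strand. Capitals mark matches, on either strand, to the E-box CANNTG, the TATA box TATAAA, the GC box GGGCGG, the CCAAT box CCAAT, the MEF2 site (CTA and TAG with any 4 bases between) and the NFAT core GGAAAA.
Atp1b1 promoter: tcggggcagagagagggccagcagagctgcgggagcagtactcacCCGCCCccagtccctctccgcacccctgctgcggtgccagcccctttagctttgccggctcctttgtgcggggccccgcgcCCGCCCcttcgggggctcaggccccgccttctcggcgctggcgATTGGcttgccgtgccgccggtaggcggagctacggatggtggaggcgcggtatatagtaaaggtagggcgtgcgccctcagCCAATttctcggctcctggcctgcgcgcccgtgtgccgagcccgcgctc
Fxyd1 promoter: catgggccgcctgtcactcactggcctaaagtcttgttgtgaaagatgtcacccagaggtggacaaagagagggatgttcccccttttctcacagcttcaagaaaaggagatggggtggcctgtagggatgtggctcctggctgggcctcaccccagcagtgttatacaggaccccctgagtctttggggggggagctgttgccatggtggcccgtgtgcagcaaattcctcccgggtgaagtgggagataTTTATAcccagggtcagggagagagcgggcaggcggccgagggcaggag
Fxyd6 promoter: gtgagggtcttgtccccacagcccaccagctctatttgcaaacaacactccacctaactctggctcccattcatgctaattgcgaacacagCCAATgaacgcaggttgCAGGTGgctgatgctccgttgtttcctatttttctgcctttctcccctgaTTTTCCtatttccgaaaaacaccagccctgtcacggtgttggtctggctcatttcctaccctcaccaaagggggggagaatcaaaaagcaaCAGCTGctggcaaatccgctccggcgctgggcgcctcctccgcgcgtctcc
The Atp1b1 window was the richest in G and C at 71.0%, against 58.7% for Fxyd1, 54.3% for Fxyd6 and a median of 52.7% over 32851 promoters. It held 2 GC boxes and 2 CCAAT boxes. The Fxyd1 window held 1 TATA box match, on the opposite strand and beginning 1 base after the start site. This start site lies inside the GENCODE span of the gene. The Fxyd6 window held 2 E-boxes, 1 CCAAT box and 1 NFAT core. Over all promoters of the same length the E-box was present in 72.3%, the TATA box in 13.6%, the GC box in 35.7%, the CCAAT box in 37.4%, the MEF2 site in 3.69% and the NFAT core in 23.4%. None of the 3 windows held a MEF2 site match.

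Beta 1 RNA was higher and beta 2 RNA lower in fast 2A than in fast 2X cells. Atp1b1 lies on chromosome 1 from 164437109 to 164458355 on the minus strand of GRCm38, and Atp1b2 on chromosome 11 from 69599736 to 69605942, also on the minus strand. In single fast 2X cells Atp1b1 ranged from no count to 412 CPM with a median of 125 CPM, and in single fast 2A cells from 26.3 to 562 CPM with a median of 227 CPM. The classes overlapped, with 40 of 51 fast 2A cells above the fast 2X median and 5 above the highest fast 2X cell. From the summed counts Atp1b1 stood at 133 CPM (95% counting limits 129 to 137) in fast 2X and 239 CPM (230 to 248) in fast 2A cells, a log2 ratio of 0.84 (0.78 to 0.91). All limits given with levels, ratios and shares cover counting error only and not the spread between cells or mice.

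Atp1b2 was lower in fast 2A cells. It ranged from no count to 381 CPM with a median of 113 CPM in fast 2X cells, and from no count to 86.0 CPM with a median of 26.3 CPM in fast 2A cells. None of the 51 fast 2A cells reached the fast 2X median, and 46 lay below the lower quartile of the fast 2X cells. The summed level was 120 CPM (117 to 123) in fast 2X and 31.7 CPM (28.6 to 35.1) in fast 2A cells, a log2 ratio of -1.92 (-2.07 to -1.77). The median fast 2A cell held 5 Atp1b2 counts, against 23 in the median fast 2X cell, so single fast 2A cells are resolved only coarsely for this gene.

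Of the FXYD pair, Fxyd6 differed more between the classes. Fxyd6 lies on chromosome 9 from 45370185 to 45396159 on the plus strand, with Fxyd2, the gamma subunit gene best known from kidney, on the same strand after a gap of 3509 bases. Its level ran from no count to 665 CPM with a median of 105 CPM in fast 2X cells, and from 92.3 to 726 CPM with a median of 394 CPM in fast 2A cells. All but 1 of the 51 fast 2A cells lay above the fast 2X median, and 2 of 117 fast 2X cells lay above the fast 2A median. Summed counts gave 102 CPM (99.3 to 106) in fast 2X and 351 CPM (340 to 362) in fast 2A cells, a log2 ratio of 1.78 (1.71 to 1.84). The highest fast 2X cell for Fxyd6, at 665 CPM, also held 3032 CPM of Schwann cell and axon markers and 1429 CPM of fibroblast markers, whereas the next one, at 628 CPM, held 31.4 and 94.1 CPM of these. Without the 7 fast 2X cells and 1 fast 2A cell over 1000 CPM of other markers the log2 ratio of Fxyd6 was 1.82.

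Fxyd1 was close to even. It lies on chromosome 7 from 31051678 to 31057199 on the minus strand, in a row with Fxyd5, Fxyd7 and Fxyd3, with 210 bases between it and Fxyd7. In fast 2X cells Fxyd1 ranged from 34.7 to 719 CPM with a median of 339 CPM, and in fast 2A cells from 166 to 878 CPM with a median of 387 CPM. The ranges overlapped almost wholly, and 1 fast 2A cell exceeded the highest fast 2X cell. The summed levels of 347 CPM (342 to 353) and 400 CPM (389 to 411) gave a log2 ratio of 0.20 (0.16 to 0.25), which is smaller than the spread of this ratio between plates given further on.

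**Figure D1:**
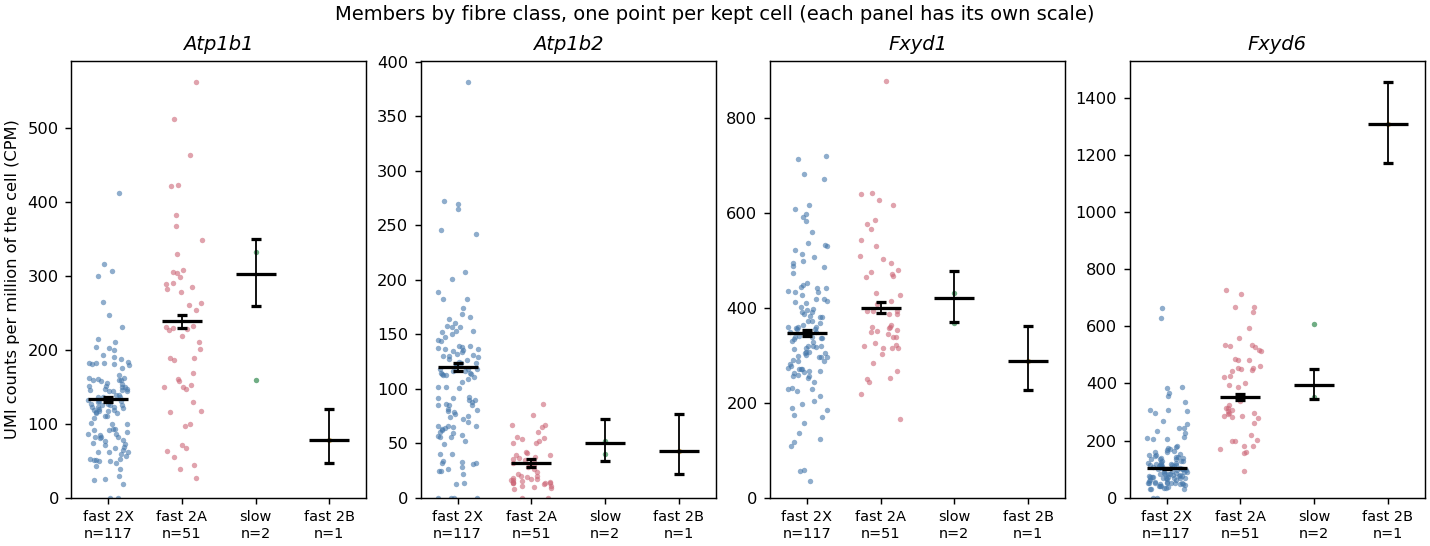
Level of each member in CPM (vertical axis, own scale in each panel) in every kept cell, by fibre class (horizontal axis). Black bars give the level from summed counts with its 95% counting limits. Atp1b2 of all 51 fast 2A cells lies under the fast 2X median of 113 CPM, and the single fast 2B cell has the highest Fxyd6 level at 1307 CPM.

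For scale, 8744 genes other than the 5 Myh genes had at least 500 summed counts over the kept cells. Of these, 225 (2.57%) lay at least 1.5-fold above and 650 (7.43%) at least 1.5-fold below in fast 2A cells, with a median log2 ratio of -0.09. When libraries were rescaled by the trimmed mean of M values (TMM), which added 0.11 to every log2 ratio, 385 genes lay above and 402 below. Among the 4 members, Atp1b1 and Fxyd6 lay above by this measure, Atp1b2 below and Fxyd1 neither, under both scalings. The members were chosen with this contrast in view, so their number among the genes past 1.5-fold carries no weight. By rank of the ratio, Fxyd6 was 21st from the highest, Atp1b1 106th and Fxyd1 1392nd, and Atp1b2 was 14th from the lowest.

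The members also differed in how much single cells of a class varied. Among fast 2X cells the upper quartile exceeded the lower 2.25-fold for Fxyd6, 2.13-fold for Atp1b2, 1.95-fold for Atp1b1 and 1.58-fold for Fxyd1. Among fast 2A cells these values were 1.75-fold for Fxyd6, 2.84-fold for Atp1b2, 1.99-fold for Atp1b1 and 1.51-fold for Fxyd1. The variance of the counts between cells was 3.05 to 15.8 times that of counting error in the 8 combinations of member and class. It was lowest, at 3.05, for Atp1b2 in fast 2A cells, where counts were fewest. At the same relative spread this value rises with the number of counts, so it does not rank the members by spread. Fxyd1, with 13610 counts in fast 2X cells, had the lowest quartile ratio there at 1.58-fold. The highest value, 15.8 for Fxyd6 in fast 2X cells, was followed by 13.7 for Fxyd1 in fast 2X cells. The Fxyd6 value includes the cell at 665 CPM of Fxyd6 with 3032 CPM of Schwann cell and axon markers. It was not recomputed without that cell, so this order can rest on 1 cell.

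Levels of different genes were compared per kilobase of annotated exon, although mcSCRB-seq tags each molecule once, near its 3′ end. In fast 2X cells the order was Fxyd1 at 159 CPM per kilobase, Atp1b1 at 43.1, Atp1b2 at 29.4 and Fxyd6 at 24.9. In fast 2A cells it was Fxyd1 at 183 CPM per kilobase, Fxyd6 at 85.5, Atp1b1 at 77.4 and Atp1b2 at 7.77. The order of the members was the same without the division by length in both classes. Fxyd6 thus held the last place in fast 2X and the second in fast 2A cells, and Atp1b2 the third and the last. In fast 2X cells the levels of Atp1b1, Atp1b2 and Fxyd6 lay close together and single cells overlapped widely, so their order there is smaller than the spread between cells.

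Within a cell, the share of Atp1b1 among Atp1b1 and Atp1b2 counts does not depend on the total. This beta 1 share was 52.5% (51.6 to 53.5) of 9907 counts in fast 2X and 88.3% (87.1 to 89.3) of 3219 counts in fast 2A cells. In single cells it ran from 0% to 100% with a median of 52.9% in fast 2X, and from 40.0% to 100% with a median of 88.2% in fast 2A cells. The beta 1 share was over 50% in 50 of 51 fast 2A cells and in 71 of the 116 fast 2X cells with any count of the pair. Myh2 and Myh1 are present together in many FDB fibres, so cells were also ordered by Myh2 as a percentage of their Myh1 and Myh2 counts, in steps of 20 points. From the lowest to the highest step the beta 1 share was 50.6%, 53.0%, 74.8%, 85.1% and 95.3%, over 48, 59, 16, 29 and 16 cells. The first and second steps held fast 2X cells, the third held 10 fast 2X and 6 fast 2A cells, and the last 2 held fast 2A cells.

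Across the same steps the levels behind the share did not move in step with one another. Atp1b2 was at 132, 111, 59.9, 35.1 and 15.8 CPM, a lower value at each step. Atp1b1 was at 135, 125, 178, 200 and 323 CPM, so that it differed little between the first and second steps and was highest in the last. The summed level of both genes was 253 CPM (248 to 258) in fast 2X and 270 CPM (261 to 280) in fast 2A cells, a log2 ratio of 0.10 (0.04 to 0.15), and it lay between 235 and 267 CPM in the first 4 steps and at 339 CPM in the last. The pair thus differed far more in its make-up than in its sum between the classes.

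The share of Fxyd6 among Fxyd6 and Fxyd1 counts was 22.8% (22.2 to 23.4) of 17623 counts in fast 2X and 46.7% (45.7 to 47.8) of 8942 counts in fast 2A cells. In single cells it ranged from 0% to 92.0% with a median of 22.9% in fast 2X, and from 29.8% to 69.7% with a median of 47.6% in fast 2A cells. The lowest fast 2A cell lay above the fast 2X median. Fxyd6 counts exceeded Fxyd1 counts in 16 of 51 fast 2A cells and in 6 of 117 fast 2X cells. By Myh2 share the steps were 19.6%, 24.7%, 35.4%, 47.0% and 49.7%. The highest fast 2X value, 92.0%, belongs to the cell with 3032 CPM of Schwann cell and axon markers named above, and the part of those markers in it was not tested.

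**Figure D2:**
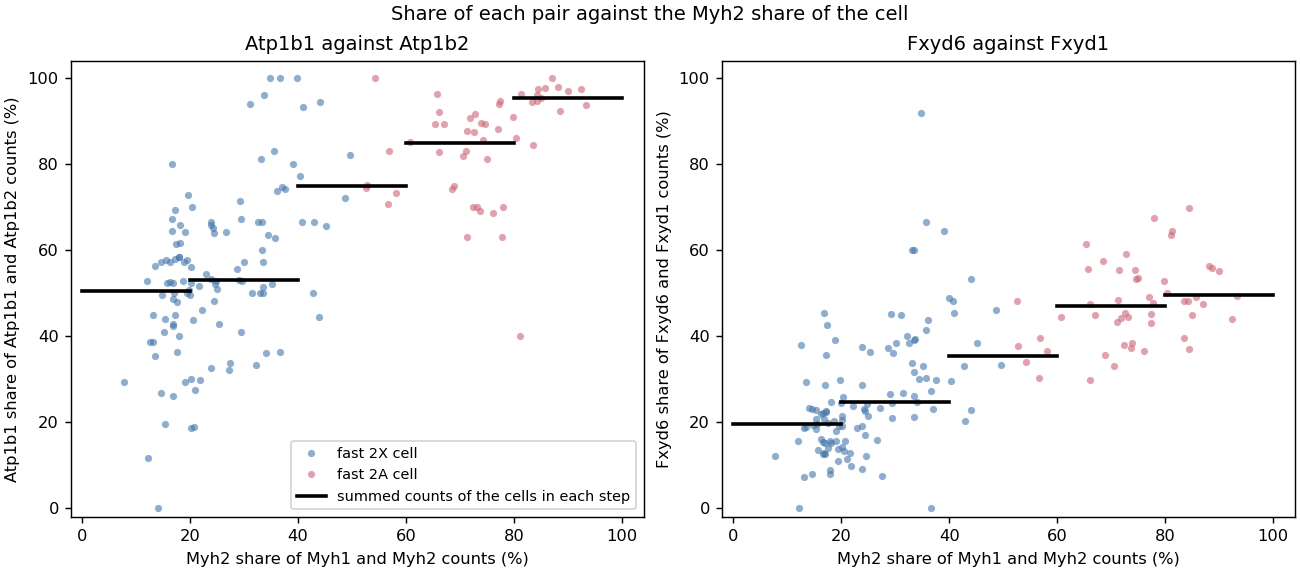
Share of Atp1b1 in Atp1b1 and Atp1b2 counts (left) and of Fxyd6 in Fxyd6 and Fxyd1 counts (right) in percent, against Myh2 as a percentage of Myh1 and Myh2 counts, for each fast 2X and fast 2A cell. Black lines give the share of the summed counts in each step of 20 points, which is 50.6% in the first and 95.3% in the last step for Atp1b1, and 19.6% and 49.7% for Fxyd6.

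Fxyd6 differed already within the fast 2X class. The step with a Myh2 share under 20% held it at 79.5 CPM (75.8 to 83.4) and the next step, still all fast 2X, at 122 CPM (116 to 127), while Fxyd1 stood at 325 and 370 CPM. In the upper 3 steps Fxyd6 was at 234, 357 and 374 CPM and Fxyd1 at 427, 402 and 379 CPM. The summed level of the FXYD pair was 450 CPM (443 to 456) in fast 2X and 751 CPM (735 to 767) in fast 2A cells, a log2 ratio of 0.74 (0.70 to 0.78).

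Correlations across cells are given as descriptions, since the cells share 1 mouse, the plates and the totals by which the levels were divided. Over the 168 fast 2A and fast 2X cells the Spearman correlation with the Myh2 share was 0.77 for Fxyd6, -0.75 for Atp1b2, 0.41 for Atp1b1 and 0.15 for Fxyd1. Within the 117 fast 2X cells alone it was 0.52 for Fxyd6, -0.52 for Atp1b2, 0.11 for Atp1b1 and -0.04 for Fxyd1. Within the 51 fast 2A cells it was 0.32 for Fxyd6, -0.56 for Atp1b2, 0.32 for Atp1b1 and -0.03 for Fxyd1. Between members, Atp1b2 and Fxyd6 gave -0.61 over 168 cells, -0.31 in fast 2X and -0.39 in fast 2A cells. The UMI total of the cell moved with 2 of the members, with -0.28 for Fxyd6 and 0.33 for Atp1b2 over the 168 cells. Within the 117 fast 2X cells the correlation with the UMI total was -0.29 for Fxyd6, 0.36 for Atp1b2, 0.22 for Atp1b1 and 0.07 for Fxyd1. The part of depth in the correlations with the Myh2 share was not tested. After every cell was thinned to 28827 counts, the log2 ratio of fast 2A to fast 2X was 1.54 for Fxyd6 and -1.58 for Atp1b2.

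Plates were read from the index given with each cell, 705 to 712, so here a plate means the cells that share 1 index. Each of the 8 plates was sequenced on 1 of 2 lanes, and the ratio was taken within each plate. A plate held 2 to 10 fast 2A and 6 to 21 fast 2X cells. The log2 ratio of Atp1b1 was above 0 in 8 of 8 plates, from 0.74 to 1.20. That of Atp1b2 was below 0 in 8 of 8 plates, from -2.44 to -1.26, and that of Fxyd6 above 0 in 8 of 8, from 0.81 to 2.35. The lowest Fxyd6 ratio came from plate 710, which held 2 fast 2A cells, and its limits (0.50 to 1.10) lay below those of the other 7 plates except plate 707 (1.07 to 1.46). Fxyd1 was above 0 in 6 plates and below in 2, from -0.18 to 0.45 with a median of 0.06, so its difference between the classes did not hold from plate to plate. The summed beta pair was above 0 in 7 plates and below in 1, from -0.02 to 0.55, and the summed FXYD pair above 0 in 8, from 0.19 to 1.15. By lane, Fxyd6 gave 1.65 on lane 1 and 1.91 on lane 2, and Atp1b2 gave -2.08 on lane 1 and -1.70 on lane 2.

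**Figure D3:**
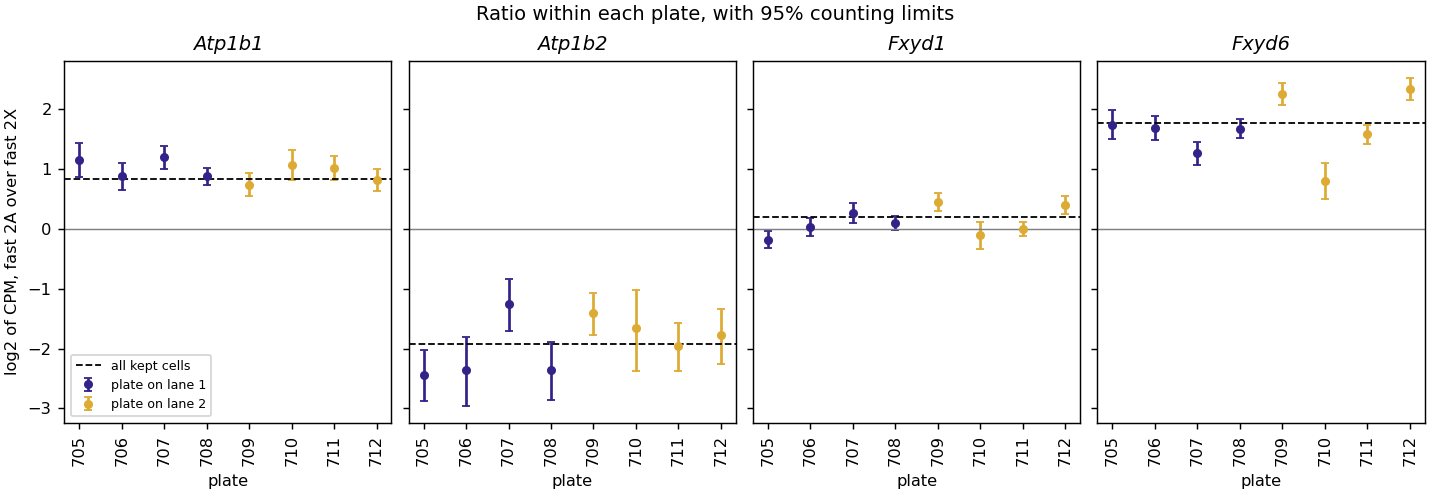
Log2 ratio of fast 2A to fast 2X CPM of each member (vertical axis) in each of the 8 plates (horizontal axis), with 95% counting limits and colour by lane. The dashed line is the ratio over all kept cells and the grey line is 0. Atp1b1 and Fxyd6 lie above 0 and Atp1b2 below 0 in all 8 plates, and Fxyd1 lies on both sides.

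The 2 slow cells and the single fast 2B cell are too few to stand for their classes. In the slow cells Atp1b1 was at 332 and 159 CPM, Atp1b2 at 52.2 and 39.8 CPM, Fxyd1 at 432 and 368 CPM and Fxyd6 at 351 and 606 CPM. All 4 members of both slow cells lay within the range of the fast 2A cells and also within that of the fast 2X cells. Their summed beta 1 share was 85.8% (80.2 to 90.3) and their Fxyd6 share 48.4% (43.8 to 53.0). The fast 2B cell, with 53.5% of its counts of the 5 Myh genes from Myh4, held Fxyd6 at 1307 CPM (1171 to 1455) from 336 counts, above every fast 2X and fast 2A cell. It also held Atp1b1 at 77.8, Atp1b2 at 42.8 and Fxyd1 at 288 CPM. The same cell carried 2089 CPM of fibroblast and 607 CPM of Schwann cell and axon markers, with 28 of 33 markers of other cell types counted and Nefm, Calcr, Hba-a1, Hba-a2 and Hbb-bt at 0, and their part in its Fxyd6 level was not tested. In 14 fast 2B cells that did not pass the filters, Fxyd6 stood at 42.6 CPM (27.0 to 64.0).

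The 592 cells that did not pass the filters were not used to choose the members, but they come from the same mouse. Of these, 501 held at least 20 counts of the 5 Myh genes and were classed, which gave 420 fast 2X and 66 fast 2A cells. Their median mitochondrial share was 52.7% in fast 2X and 52.0% in fast 2A cells, against 5.01% and 6.96% in kept cells. Fxyd6 was at 51.1 CPM (47.3 to 55.2) in fast 2X and 152 CPM (136 to 170) in fast 2A cells, a log2 ratio of 1.57 (1.37 to 1.77). Atp1b1 was at 37.0 and 50.3 CPM, a ratio of 0.45 (0.12 to 0.76), and Fxyd1 at 99.6 and 134 CPM, a ratio of 0.43 (0.24 to 0.62). Atp1b2 was at 33.4 and 24.9 CPM, a ratio of -0.42 with limits of -0.87 and -0.00061. The direction was thus the one of the kept cells for all 4 members, but the Atp1b1 and Atp1b2 ratios were closer to 0 and their limits did not overlap those of the kept cells.

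The shares within pairs followed the same order in the cells left out. The beta 1 share was 52.5% (49.2 to 55.8) in fast 2X and 66.9% (58.9 to 74.2) in fast 2A cells, and the Fxyd6 share 33.9% (31.8 to 36.1) and 53.1% (48.9 to 57.2). The beta 1 share of fast 2X cells was therefore close to that of kept cells, while that of fast 2A cells was lower than the 88.3% of kept cells. Every member had a lower CPM in the cells left out, such as 38.7 against 159 CPM for Atp1b1 and 105 against 360 CPM for Fxyd1. With mitochondrial counts removed from the total this narrowed to 81.4 against 169 CPM for Atp1b1 and 220 against 383 CPM for Fxyd1. By reason of exclusion, Fxyd6 gave 1.83 (1.57 to 2.09) in cells over the mitochondrial maximum alone, 1.61 (0.83 to 2.37) in cells under the gene minimum alone and 1.00 (0.63 to 1.36) in cells failing both. In each of these 3 sets taken alone the limits of Atp1b1 and of Atp1b2 included 0.

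**Figure D4:**
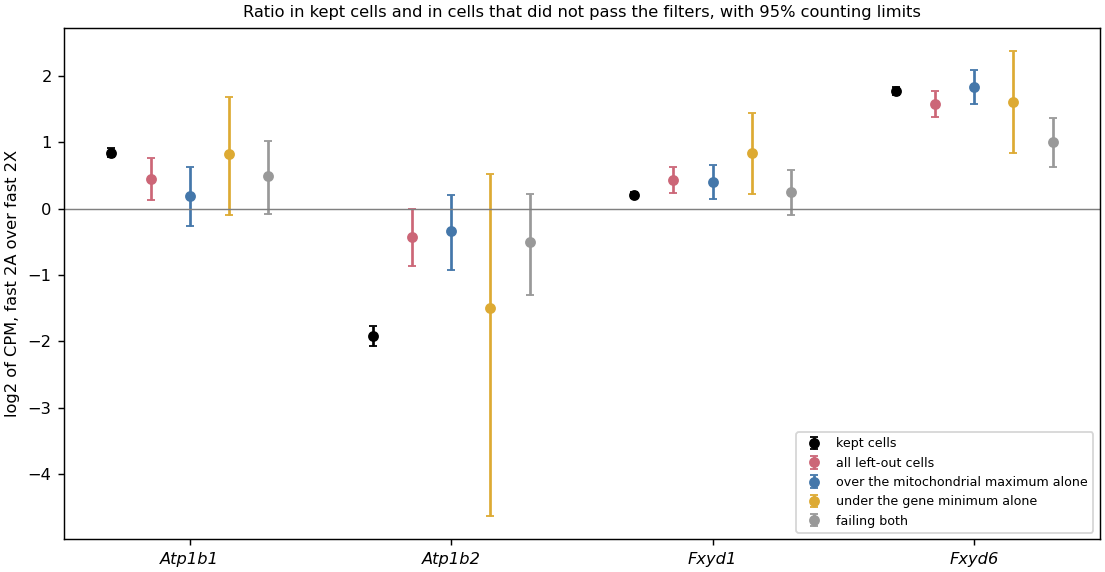
Log2 ratio of fast 2A to fast 2X CPM of each member (vertical axis) in kept cells, in all cells left out and by the filter they failed, with 95% counting limits. Fxyd6 lies above 0 in all 5 sets, and Atp1b2 is at -1.92 in kept cells and at -0.42 in all cells left out.

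Cells beside the thresholds gave values on both sides. The 5 kept cells with the fewest genes, 5193 to 5651, held Fxyd1 at 363 CPM (280 to 463) and Fxyd6 at 221 CPM (157 to 302), and the 5 cells left out with the most genes, 4122 to 4808, at 292 CPM (194 to 422) and 136 CPM (72.2 to 232). All 10 were fast 2X cells. The 5 kept cells with the highest mitochondrial share, 17.5% to 19.9%, held Atp1b1 at 86.2 CPM (56.3 to 126) and the 5 just outside, 20.1% to 21.6%, at 140 CPM (92.4 to 204). In 7 kept cells, 3 of them fast 2X and 4 fast 2A, the leading Myh genes were within 10 percentage points of one another. There Atp1b2 stood at 49.5 CPM and Fxyd6 at 267 CPM, both between the levels of the 2 classes. Atp1b1 at 238 CPM and Fxyd1 at 405 CPM instead lay near their fast 2A levels of 239 and 400 CPM.

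The members were set beside other genes of the pump and its partners, in a list of 16 genes that includes the 4 members. Of these, 9 had at least 500 summed counts, of which 2 lay at least 1.5-fold above in fast 2A cells (Atp1b1 and Fxyd6), 1 below (Atp1b2) and 6 neither, with a median log2 ratio of 0.20. Among all 8744 genes with this minimum, other than the Myh genes of the class rule, the shares were 2.57% above and 7.43% below. All 3 genes of the list past 1.5-fold were members, which were chosen with this contrast in view.

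Of the remaining beta genes, Atp1b3 was at 19.1 CPM in fast 2X and 18.5 CPM in fast 2A cells, a log2 ratio of -0.05 (-0.27 to 0.17). Atp1b4, whose product lies in the inner nuclear membrane of placental mammals, was at 24.1 and 32.5 CPM, a ratio of 0.43 (0.25 to 0.60). Of the Nkain genes, whose products bind the pump's beta 1 subunit, Nkain2 was at 177 and 178 CPM, Nkain3 at 24.0 and 19.1 CPM and Nkain1 at 10.5 and 12.6 CPM. The other 7 genes, namely Atp1a4, Fxyd2, Fxyd3, Fxyd4, Fxyd5, Fxyd7 and Nkain4, had 30 to 256 summed counts each. The immediate neighbours of the members on the chromosome were among them, with 162 counts for Fxyd7 beside 18690 for Fxyd1, and 58 counts for Fxyd2 beside 8758 for Fxyd6.

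**Figure D5:**
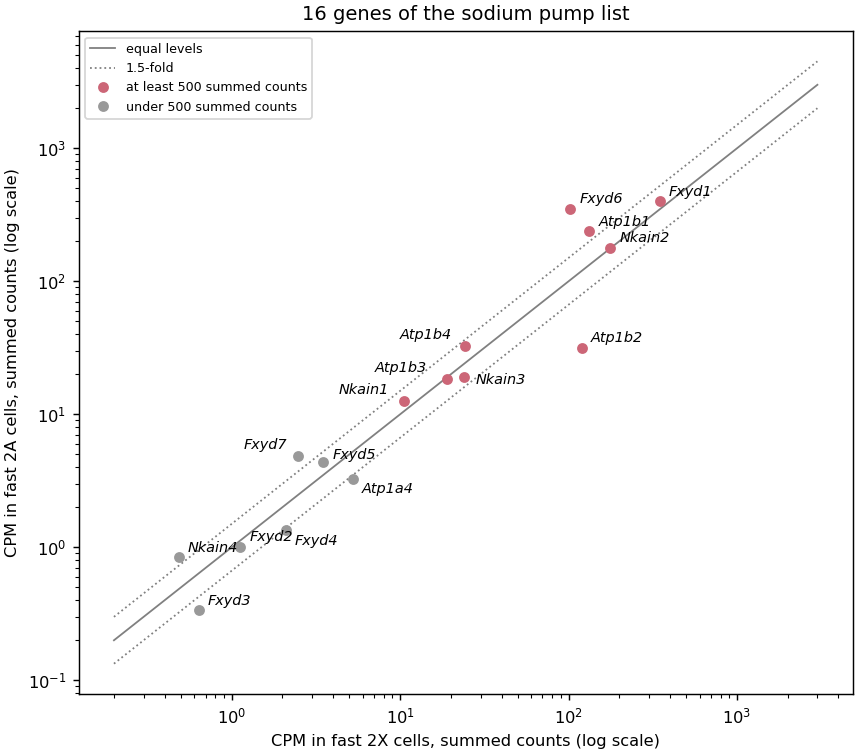
Level in fast 2A cells against level in fast 2X cells for the 16 genes of the sodium pump list, both in CPM from summed counts on log axes. The solid line marks equal levels and dotted lines mark 1.5-fold. Atp1b2 lies below the lower line at 120 and 31.7 CPM and Fxyd6 farthest above the upper line at 102 and 351 CPM.

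Routes by which sodium, potassium or chloride cross the membrane, from a list of 11 genes, gave 1 gene above, 2 below and 7 neither among the 10 with at least 500 counts. Over all 8744 genes with this minimum, 2.57% lay above and 7.43% below, and lists this short cannot be set firmly against these shares. Kcnma1, a calcium-gated potassium channel, was at 300 CPM in fast 2X and 576 CPM in fast 2A cells. Slc8a1, a sodium-calcium exchanger, was at 151 and 77.9 CPM, and Clcn1, the muscle chloride channel, at 73.6 and 47.5 CPM. Scn4a, the muscle sodium channel, was at 67.6 and 64.4 CPM. Among 9 kinases and anchors named with the pump, Ank2, a membrane anchor, lay above at 172 and 409 CPM. Sgk1, a kinase induced by steroid hormones, lay below at 45.7 and 25.7 CPM, and the other 7 lay within 1.5-fold. Prkaca and Prkca, which encode kinases that phosphorylate phospholemman, were among these, at 102 and 111 CPM and at 177 and 172 CPM.

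The genes whose levels across the 171 kept cells were most like each member were ranked by Spearman correlation among 2649 genes counted in at least 95% of these cells. For Atp1b1 they were Xirp2 (0.59), Nrap (0.59) and Limch1 (0.56), of which Xirp2 and Nrap encode actin-binding proteins. For Atp1b2 they were Mss51 (0.77), Pvalb (0.77) and Actn3 (0.75), the last a Z-disc protein of fast fibres. For Fxyd1 they were Atp5k (0.71), a subunit of ATP synthase, Nme2 (0.70), a nucleoside diphosphate kinase, and Ndufb9 (0.67), a subunit of respiratory complex I. For Fxyd6 they were Tnni1 (0.77), the slow troponin I, Myoz2 (0.75), a Z-disc protein, and Ldhb (0.74), the heart-type lactate dehydrogenase subunit. Within the 117 fast 2X cells, 5 of these 12 genes kept a place, namely Pvalb, Nme2, Atp5k, Myoz2 and Tnni1, and none of the 3 for Atp1b1 did. Nme7, which lies on the opposite strand, shares 617 bases with the 3′ end of Atp1b1, 575 of them in exons of both genes, and was counted at 4.24 CPM in fast 2X and 4.70 CPM in fast 2A cells. Whether the counting used strand is not given in the sources used here, so reads over these bases cannot be told apart with certainty.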

How the data were processed

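Single FDB myofibers of 1 mouse were profiled by mcSCRB-seq, with 8 indexes, called plates here, spread over 2 sequencing lanes. The authors mapped reads to GRCm38 with spike-in sequences (STAR 2.5.4b and featureCounts within zUMIs). They deposited raw UMI counts per gene and cell in 1 table. Its 10 descriptive rows per cell are other values and were used only for index (read as plate), lane, cell type and read totals. For each class the counts of a gene were added up and divided by the added totals of its cells to give CPM. Limits at the 95% level were exact Poisson for levels, exact conditional binomial for ratios and exact Clopper-Pearson for shares. Because all cells come from 1 mouse, no test was run and no p-value is given. Fibres were sorted singly into wells, so no doublet caller was run. No cell of another type was sequenced as a background. Ratios across genes used those with at least 500 summed counts and a 1.5-fold limit. Named genes were the 4 members, the genes of 3 lists (by value at 500 counts or more, otherwise by count), some of which are not reported here, and the 3 genes most like each member. Gene positions are from GENCODE vM21. The members and lists were chosen with earlier results of these data known. Ratios were also recomputed with other filters, class rules, totals, summaries and sets of plates. Scripts were tested on simulated data and ran in Python 3.11.15 with numpy 2.4.6 and scipy 1.17.1.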

Additional observations from a re-analysis of the deposited data

How the results depend on the processing

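Of 279 recomputed values for 21 results, 212 stayed within the 95% counting limits (for counts of genes, within 1.5 times) and 67 moved outside, and no ratio changed sign. The cause of these movements was not tested. The 212 include alternatives that could not move. No kept cell was classed by Myh8, so leaving Myh8 out of the class rule returned the same values. Nor can another total for a class change the order of the members in it. All cells come from 1 mouse, so neither the spread between mice nor that between digestions can be seen, and counting limits are narrower than the spread between plates. No paired analysis was possible because the 2 samples are lanes of 1 group. Alternatives added after the data were seen are the removal of cells over 1000 CPM of other markers and all those for the summed pairs. At these depths Atp1b2 in single fast 2A cells rests on few counts.

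Under TMM scaling the log2 ratio was 0.96 for Atp1b1, 1.89 for Fxyd6, 0.32 for Fxyd1, 0.21 for the summed beta pair and 0.85 for the summed FXYD pair. As the median of ratios within plates they were 0.95 for Atp1b1, 1.68 for Fxyd6, 0.064 for Fxyd1 and 0.58 for the FXYD pair, and the Fxyd6 share in fast 2X cells was 21.1%. After thinning every cell to the shallowest, Atp1b2 gave -1.58, Fxyd6 1.54, the beta pair 0.18 and the FXYD pair 0.69, the beta 1 share was 86.6% in fast 2A and 54.7% in fast 2X cells, and the Fxyd6 share 49.0% and 27.3%. From medians over cells Atp1b2 gave -2.10 and Fxyd6 1.91. From means over cells Fxyd6 gave 1.56, the beta 1 share was 85.0% in fast 2A and 54.8% in fast 2X cells, and the Fxyd6 share in fast 2X cells was 26.3%. With a mitochondrial maximum of 10% Atp1b1 gave 0.91 and the Fxyd6 share in fast 2X cells was 22.1%. Without cells over 1000 CPM of other markers that share was 22.1%. Without the cells near the class boundary Fxyd6 gave 1.84.

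With 1 lane or 1 plate left out, the ratios ranged from 0.80 to 0.88 for Atp1b1, -2.08 to -1.70 for Atp1b2, 0.15 to 0.26 for Fxyd1, 1.65 to 1.91 for Fxyd6, 0.04 to 0.15 for the beta pair and 0.66 to 0.82 for the FXYD pair. The beta pair gave 0.044 without plate 707, 0.056 without lane 1, and 0.15 without lane 2 and without plate 705. The beta 1 share ranged from 85.6% to 90.3% in fast 2A and 50.9% to 54.3% in fast 2X cells, and the Fxyd6 share from 45.6% to 47.6% and 21.7% to 23.3%.

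Among all genes, 385 lay above and 402 below 1.5-fold with TMM factors, 69 and 153 passed 2-fold, 659 and 2258 passed with a minimum of 100 counts, and 4034 and 6397 with 1 count in each class. In the sodium pump list, 4 genes lay above and 1 below from medians over cells. With a minimum of 100 counts 3 lay above and 2 below, and with no minimum 4 above and 4 below. The share of all genes under these settings was not computed, so these counts are no result about the list. Of the 12 genes most like the members, 5 kept a place within fast 2X cells and 6 with Pearson correlation of log2(CPM + 1). In cells left out under the gene minimum alone, Atp1b1 gave 0.82, Atp1b2 -1.50 and Fxyd1 0.84. Fxyd6 gave 1.83 in those over the mitochondrial maximum alone and 1.00 in those failing both.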
